A study of Mus musculus with 23 samples.

Results

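The YAP pathway and its targets are described here as 10 genes, taken from the count table of mouse colonic epithelium by matching the gene symbol, out of 24917 gene loci listed. Each symbol stood at a single locus, and none of the 10 loci overlapped another listed locus. The members are the co-activators Yap1 and Wwtr1 (which encodes TAZ), their DNA-binding partner Tead1, the kinase Lats2, the adaptors Amotl2 and Ajuba, and the targets Cyr61, Ctgf, Thbs1 and Ankrd1. Epithelium was released with EDTA from the whole colon of male C57BL/6J mice (C57BL/6 in the labels) that entered their diet at 6 weeks of age and stayed on it for 43 weeks. LF mice (control) received a 10% fat diet throughout, HF mice (obese) a 60% fat diet throughout, and HF-LF mice (formerly obese) the 60% diet for 15 weeks and then the 10% diet for 28 weeks. Batch 1 held 4 LF, 3 HF and 4 HF-LF samples and batch 2 held 4 LF, 3 HF and 5 HF-LF samples, 23 in all. The methods describe 5 mice for each regimen, fewer than the LF (8), HF (6) or HF-LF (9) samples of both batches, so the 23 samples may not all be separate mice. The p-values measure the spread between these samples, and fits over both batches may count a mouse more than once.

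In the Hippo pathway, a kinase cascade ending in LATS1 and LATS2 phosphorylates YAP and TAZ and holds them out of the nucleus. When the cascade is inactive, for instance in spread or stretched cells, YAP and TAZ enter the nucleus, bind TEAD proteins and switch on genes for secreted matricellular proteins and for inhibitors of the pathway itself, LATS2 and AMOTL2 among them. In the intestine, YAP is best known for its part in regeneration after injury. Because YAP and TAZ are controlled largely at the protein level, the RNA values below describe transcripts and not the activity of the proteins.

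Members were read against the TEAD core motif, the letters GGAATG on either strand, in the 250 bases before the annotated start of the gene. RefSeq (build GRCm38.p6) gave that stretch for 7 of the 10 members. Entries for Tead1, Ctgf and Thbs1 were missing. The core was found in 6 of the 7, in Yap1, Wwtr1, Cyr61, Ankrd1, Amotl2 and Ajuba but not in Lats2, against 2084 of 17906 mouse promoters of the same length (11.6%). The AP-1 motif TGANTCA was in 0 of the 7 and in 6.45% of all promoters, and the CArG box, the binding motif of serum response factor, was in 0 of the 7 and in 1.41%. Such matches are letters in a window and were not measured as binding. The stretches printed are those of a target that was lower in HF samples (Cyr61), of an inhibitor and a co-activator that were also lower (Amotl2, Wwtr1), of a co-activator that did not pass the test (Yap1) and of a target without a single read (Ankrd1). Each reads 5′ to 3′ on the strand of its gene and ends at the base before the start, with the core in capitals (CATTCC where it lies on the other strand).
Cyr61, chr3:145649986-145650235, minus strand: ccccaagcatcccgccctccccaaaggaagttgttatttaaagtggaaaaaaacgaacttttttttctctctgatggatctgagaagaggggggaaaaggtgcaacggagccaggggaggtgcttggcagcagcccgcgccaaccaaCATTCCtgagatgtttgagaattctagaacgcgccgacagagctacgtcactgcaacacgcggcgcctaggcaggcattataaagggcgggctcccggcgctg
Amotl2, chr9:102717554-102717803, plus strand: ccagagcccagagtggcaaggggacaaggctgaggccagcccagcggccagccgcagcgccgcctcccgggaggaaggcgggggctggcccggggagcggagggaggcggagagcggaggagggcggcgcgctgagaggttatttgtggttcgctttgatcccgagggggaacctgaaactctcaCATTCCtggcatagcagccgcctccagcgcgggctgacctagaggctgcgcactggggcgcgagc
Wwtr1, chr3:57575911-57576160, minus strand: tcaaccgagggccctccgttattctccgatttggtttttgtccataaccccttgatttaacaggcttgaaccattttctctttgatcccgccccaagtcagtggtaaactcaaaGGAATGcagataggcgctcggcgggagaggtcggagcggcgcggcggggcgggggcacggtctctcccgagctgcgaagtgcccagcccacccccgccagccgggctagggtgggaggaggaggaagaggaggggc
Yap1, chr9:8004597-8004846, minus strand: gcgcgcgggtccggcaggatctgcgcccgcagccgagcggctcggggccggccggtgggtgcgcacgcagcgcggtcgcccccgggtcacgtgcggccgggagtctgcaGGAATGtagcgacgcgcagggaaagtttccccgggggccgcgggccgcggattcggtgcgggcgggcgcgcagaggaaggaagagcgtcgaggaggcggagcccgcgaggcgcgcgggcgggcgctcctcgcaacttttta
Ankrd1, chr19:36119845-36120094, minus strand: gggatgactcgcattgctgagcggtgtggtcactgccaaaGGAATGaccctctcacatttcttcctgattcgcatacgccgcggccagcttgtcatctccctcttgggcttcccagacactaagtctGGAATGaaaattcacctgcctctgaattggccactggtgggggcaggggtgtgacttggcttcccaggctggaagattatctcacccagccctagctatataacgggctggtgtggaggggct

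The core began 103 bases before the start of Cyr61, 65 before that of Amotl2, 136 before that of Wwtr1 and 141 before that of Yap1. Ankrd1 held the core at 210 and at 123 bases, and Ajuba at 186 and at 164. A core in this window was thus present in members that were called between diets, in members that were not called and in Ankrd1, which had no reads.

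The libraries held 29189922 to 46498521 reads on genes in batch 1 and 31607019 to 65320947 in batch 2. Levels are given as CPM, counts scaled to a common library size with TMM factors found within each batch, and 3 counts corresponded to between 0.0459 and 0.103 CPM, which covers counting error only. Of the 10 members, 8 passed the filter on low counts in both batches, and Ctgf and Ankrd1 did not. Epithelial markers defined the samples: the 10 epithelial genes summed to between 15500 and 26900 CPM, and Epcam averaged between 1680 and 2070 CPM in the 6 groups of diet and batch. Markers of other cells were low, with sums over samples of 0.654 to 52 CPM for 8 smooth muscle genes, 10.1 to 65.1 for 7 fibroblast genes, 6.72 to 19.5 for 6 endothelial genes and 14.5 to 26.8 for 6 of the 7 immune genes listed. In bulk epithelium, fewer cells of a type and less RNA per cell cannot be told apart.

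Per kilobase of exon, the members spanned a wide range of levels in LF samples. Thbs1 was highest, at 100 ± 22.9 CPM per kb in batch 1 and 111 ± 18.5 in batch 2 (SD, n = 4 each). Cyr61 (16.9 ± 2.10 in batch 1 and 42.1 ± 15.1 in batch 2) and Yap1 (17.7 ± 0.378 and 18.7 ± 0.860) followed. In batch 1 these neighbours did not separate, since Cyr61 ran from 14.5 to 18.7 and Yap1 from 17.2 to 18 CPM per kb. Lats2 (4.77 and 4.06), Amotl2 (3.22 and 4.03) and Tead1 (3.04 and 3.57) lay close together, Ajuba averaged 1.44 and 1.52, and Wwtr1 0.158 and 0.257 CPM per kb. The colonic epithelium therefore held far more Yap1 than Wwtr1 transcript per length, and Wwtr1 rested on 7 to 62 counts per sample.

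Among the targets, those of the matricellular class were present at very unequal levels. Ankrd1, a nuclear ankyrin repeat protein best known from muscle, had 0 counts in each of the 23 samples, which allows a level of up to 0.0459 to 0.103 CPM depending on the sample. Ctgf, the closest relative of Cyr61, had 104 counts over the whole series in 21 of the 23 samples, with 0 to 12 counts in a sample. Ctgf was not tested between diets. Batch 1 held 0 to 0.222 CPM in LF, 0.0676 to 0.216 in HF and 0.0810 to 0.306 in HF-LF samples, and batch 2 held 0.0458 to 0.275 in LF, 0.0650 to 0.107 in HF and 0 to 0.109 in HF-LF samples. The order of the group means was not the same in the batches, with LF lowest in batch 1 (0.078) and highest in batch 2 (0.153). Thbs1 and Cyr61, in contrast, were read deeply enough to compare in every sample.

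The comparison of HF with LF samples asks how a long high-fat diet relates to the expression of these genes. With both batches in the fit and batch as a covariate, Cyr61, Wwtr1, Thbs1, Amotl2 and Lats2 were lower in HF samples, to 0.402, 0.435, 0.468, 0.679 and 0.724 of the LF level, while Yap1, Tead1 and Ajuba did not pass the test. A call required an adjusted p (edgeR's quasi-likelihood test, Benjamini-Hochberg) below 0.05 together with a fold change of more than 1.2. Thus 5 of the 8 tested members were called lower and 0 higher, where 8.81% of the 14473 genes tested were called lower and 9.16% higher. The members were chosen with earlier results of these data known, so this contrast is a description only. The median log2 fold change of the 8 members was -0.51, beside -0.01 over all genes tested. Cyr61, Thbs1 and Lats2 also stand in the study's own list of genes lowered in aged HF mice, which was made from the batch 1 samples, so batch 1 is not independent evidence of their direction.

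**Figure D1:**
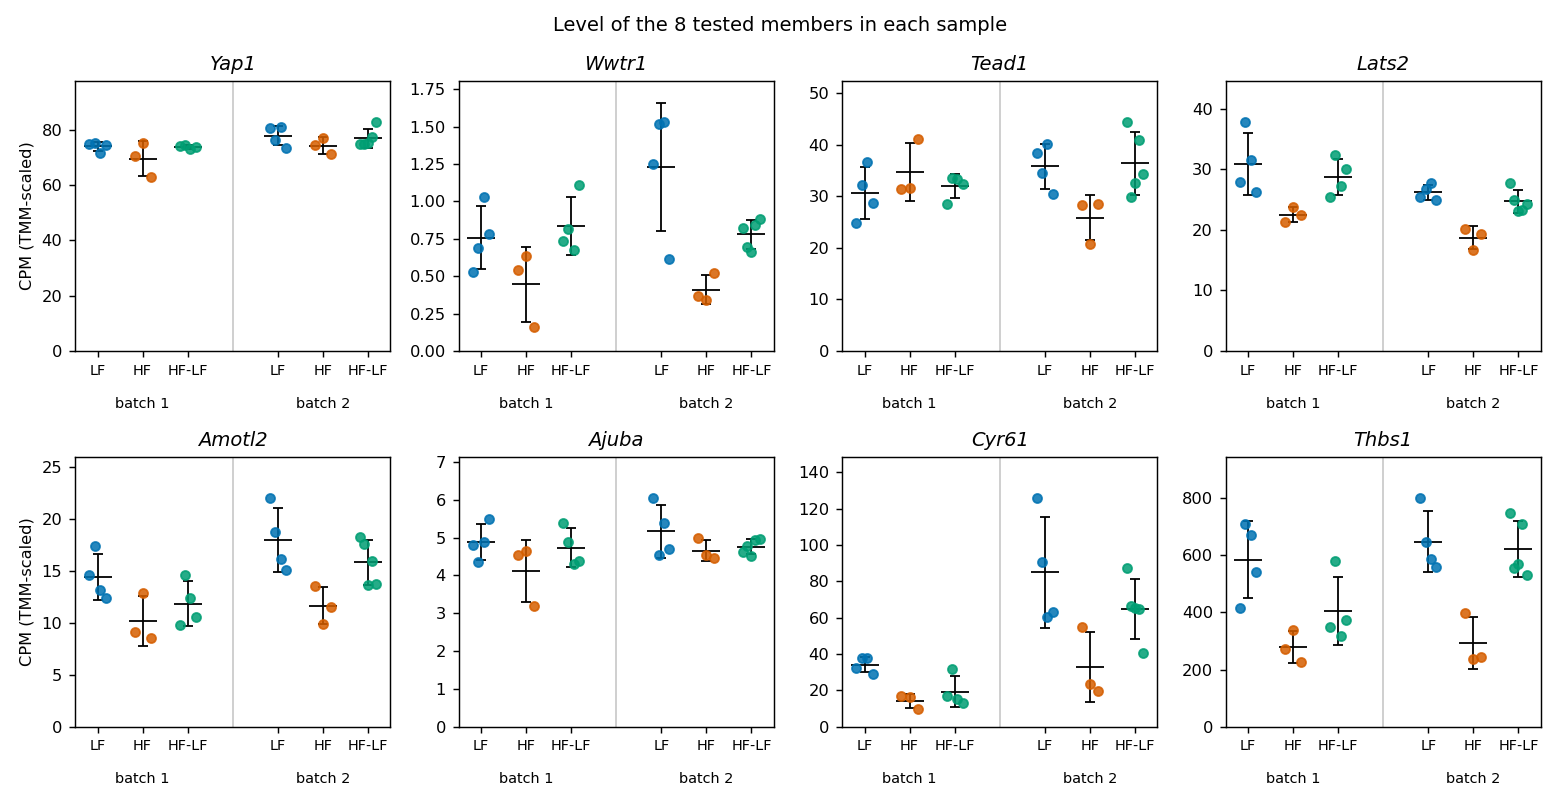
Level of the 8 tested members in CPM (TMM-scaled within batch, axes from 0) by diet and batch, with a point per sample and the group mean ± SD as bars. In both batches the 3 HF samples of Cyr61, Thbs1 and Lats2 lie below all 4 LF samples, while the Yap1 points overlap between diets at 62.9 to 82.7 CPM.

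Cyr61 encodes a secreted CCN protein that binds integrins in the matrix. In batch 1 its level was 32.1, 37.6, 37.8 and 29.2 CPM in LF, 16.6, 16.3 and 9.69 in HF, and 16.7, 31.8, 15.4 and 12.8 in HF-LF samples. In batch 2 it was 126, 90.9, 60.3 and 63.2 CPM in LF, 55, 23.7 and 19.7 in HF, and 87.6, 66.3, 65.1, 64.8 and 40.7 in HF-LF samples. Every HF sample lay below every LF sample of its batch, and the LF mean stood at 34.2 ± 4.22 CPM in batch 1 and 85.1 ± 30.6 in batch 2 (SD, n = 4 each). The log2 fold change of HF against LF was -1.27 ± 0.28 in batch 1 (SE, edgeR adjusted p = 0.137), -1.38 ± 0.34 in batch 2 (adjusted p = 0.0363) and -1.32 ± 0.24 with both batches (adjusted p = 0.00282). The change was thus of like size in the batches although only that of batch 2 passed the threshold on its own, and the difference between batches was -0.09 ± 0.47 (interaction, adjusted p = 0.983).

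Thbs1 encodes thrombospondin-1, a matricellular glycoprotein that activates latent TGF-beta. In batch 1 it stood at 415, 710, 672 and 542 CPM in LF, 273, 338 and 227 in HF, and 348, 581, 319 and 372 in HF-LF samples. In batch 2 it stood at 801, 646, 586 and 560 CPM in LF, 398, 236 and 245 in HF, and 747, 556, 570, 711 and 532 in HF-LF samples. The HF and LF samples did not overlap in either batch, and in batch 2 the HF-LF samples did not overlap the HF samples. The log2 fold change of HF against LF was -1.07 ± 0.23 in batch 1 (SE, edgeR adjusted p = 0.137), -1.15 ± 0.18 in batch 2 (adjusted p = 0.0106) and -1.10 ± 0.16 with both (adjusted p = 0.00111).

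Lats2, the kinase that phosphorylates YAP and TAZ and is itself induced by them, differed less but with little spread. In batch 1 it was at 27.9, 37.8, 31.6 and 26.2 CPM in LF, 21.3, 23.8 and 22.5 in HF, and 25.5, 32.3, 27.2 and 30.0 in HF-LF samples. In batch 2 it was at 25.5, 26.8, 27.7 and 25.0 CPM in LF, 20.2, 16.6 and 19.3 in HF, and 27.8, 24.9, 23.2, 23.3 and 24.3 in HF-LF samples. All 6 HF samples were below every LF and every HF-LF sample of their batch. Its log2 fold change of HF against LF was -0.46 ± 0.13 in batch 1 (SE, edgeR adjusted p = 0.16), -0.49 ± 0.08 in batch 2 (adjusted p = 0.0142) and -0.47 ± 0.07 with both (adjusted p = 0.00125).

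Amotl2 encodes an angiomotin-family protein that tethers YAP at cell junctions. In batch 1 it was at 14.6, 17.4, 13.1 and 12.4 CPM in LF, 9.06, 12.9 and 8.50 in HF, and 9.74, 14.6, 12.4 and 10.5 in HF-LF samples. In batch 2 it was at 22, 18.7, 16.1 and 15.1 CPM in LF, 13.5, 9.91 and 11.5 in HF, and 18.2, 17.6, 13.6, 15.9 and 13.7 in HF-LF samples. A single HF sample of batch 1, at 12.9 CPM, reached into the LF range, and the HF samples of batch 2 were below all others. The log2 fold change of HF against LF was -0.50 ± 0.18 in batch 1 (SE, edgeR adjusted p = 0.173), -0.62 ± 0.14 in batch 2 (adjusted p = 0.031) and -0.56 ± 0.12 with both (adjusted p = 0.00525).

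Of the co-activators, Wwtr1 was lower in HF samples and Yap1 was not called. Wwtr1 in batch 1 stood at 0.527, 0.687, 1.03 and 0.781 CPM in LF, 0.539, 0.638 and 0.158 in HF, and 0.738, 0.817, 0.675 and 1.11 in HF-LF samples. In batch 2 it stood at 1.25, 1.52, 1.53 and 0.618 CPM in LF, 0.368, 0.338 and 0.520 in HF, and 0.825, 0.694, 0.664, 0.841 and 0.885 in HF-LF samples. In batch 1 HF and LF overlapped and a single HF sample was far below the rest, and in batch 2 they did not overlap although a single LF sample came close. Its log2 fold change was -0.79 ± 0.41 in batch 1 (SE, edgeR adjusted p = 0.266), -1.55 ± 0.30 in batch 2 (adjusted p = 0.0232) and -1.20 ± 0.27 with both (adjusted p = 0.0059). The HF sample with the lowest Wwtr1 in batch 1 also had the lowest summed smooth muscle markers (0.654 CPM) and fibroblast markers (10.1 CPM) of all samples, and in batch 2 the HF sample with the lowest Wwtr1 had 0.988 and 13.9 CPM, the lowest there. The part of such cells in the Wwtr1 result was not tested.

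Yap1 itself was the steadiest member. Its lowest, median and highest CPM in batch 1 were 71.7, 74.7 and 75.1 in LF, 62.9, 70.5 and 75.2 in HF, and 73.0, 73.8 and 74.6 in HF-LF samples. In batch 2 the means were 77.9 ± 3.60 in LF (n = 4), 74.2 ± 2.98 in HF (n = 3) and 77.0 ± 3.39 in HF-LF samples (n = 5). The log2 fold change of HF against LF with both batches was -0.07, with a 95% confidence interval of -0.16 to 0.01 (edgeR adjusted p = 0.178). Within a group, the SD of log2 CPM was 0.07 for Yap1, beside 0.48 for Cyr61 and 0.31 for Thbs1.

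Tead1, which brings YAP and TAZ to DNA, was called between HF and LF in neither batch by edgeR. In batch 1 it was at 24.8, 32.2, 36.7 and 28.7 CPM in LF and 31.4, 31.6 and 41.2 in HF samples, and in batch 2 at 38.4, 34.5, 40.2 and 30.4 in LF and 28.3, 20.8 and 28.5 in HF samples. HF and LF overlapped in batch 1, and in batch 2 every HF sample was below every LF and every HF-LF sample. HF-LF samples were at 28.5, 33.6, 33.3 and 32.4 CPM in batch 1 and at 44.4, 29.8, 32.5, 41 and 34.4 in batch 2. The log2 fold change was 0.18 ± 0.14 in batch 1 (SE, edgeR adjusted p = 0.419) and -0.47 ± 0.14 in batch 2 (adjusted p = 0.053). In batch 2 the call depended on the processing: DESeq2 called Tead1 lower (adjusted p = 0.0154), and so did edgeR without LF replicate 4 (0.0224) or without HF-LF replicate 1 (0.0378) or 2 (0.046). The difference of these changes, -0.63 ± 0.21, had an unadjusted p of 0.00564 but did not pass adjustment over all genes (edgeR interaction test, adjusted p = 0.686), as was so for each of the 14725 genes in that test, of which 6.5% had an unadjusted p under 0.05. With both batches Tead1 changed by -0.12, with a 95% confidence interval of -0.38 to 0.13.

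Ajuba, a LIM-domain adaptor that binds LATS kinases, ran from 3.18 to 6.05 CPM over all samples and the diets overlapped in both batches. Its log2 fold change of HF against LF was -0.25 ± 0.17 in batch 1, -0.15 ± 0.11 in batch 2 and -0.19 ± 0.09 with both (SE, edgeR adjusted p = 0.128). The interval with both batches ran from -0.39 to 0.00.

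Read batch by batch, the counts of members called were unequal although most of the changes were of like size. In batch 1, 0 of 8 members and 0% of 14428 genes were called by edgeR. At an unadjusted p under 0.05, 4 members (Cyr61, Thbs1, Lats2 and Amotl2) were lower, beside 10.2% of all genes lower, and DESeq2 called 3 members (Cyr61, Thbs1 and Lats2). In batch 2, 5 members were called lower, beside 4.4% of 14377 genes. Without replicate 2 of the HF samples, the batch 2 count fell to 0 members and 15 genes. It was also 1 without HF replicate 3 or LF replicate 3, 2 without LF replicate 1 and 3 without LF replicate 2. In batch 1, the counts were 3 members and 1352 genes without HF replicate 2, and 1 member without HF-LF replicate 2. With both batches it was 5 whichever sample was left out, and 5 when the counts of same-numbered samples of the batches were added together. Adding samples avoids counting a mouse again only if equal numbers mark the same mouse, which is not stated. Deviations from the group means had a median correlation of -0.052 between same-numbered samples of a diet in the 2 batches. For other numbers it was -0.002. In groups that did not overlap, Cyr61, Thbs1 and Lats2 were lower in every HF than in every LF sample in each batch, as were 2.5% of the 14180 genes tested in both. In batch 1 alone 3 members did so (7.33% of genes lower), and in batch 2 alone 6 (13.5% of genes lower), with Amotl2, Wwtr1 and Tead1 added.

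**Figure D2:**
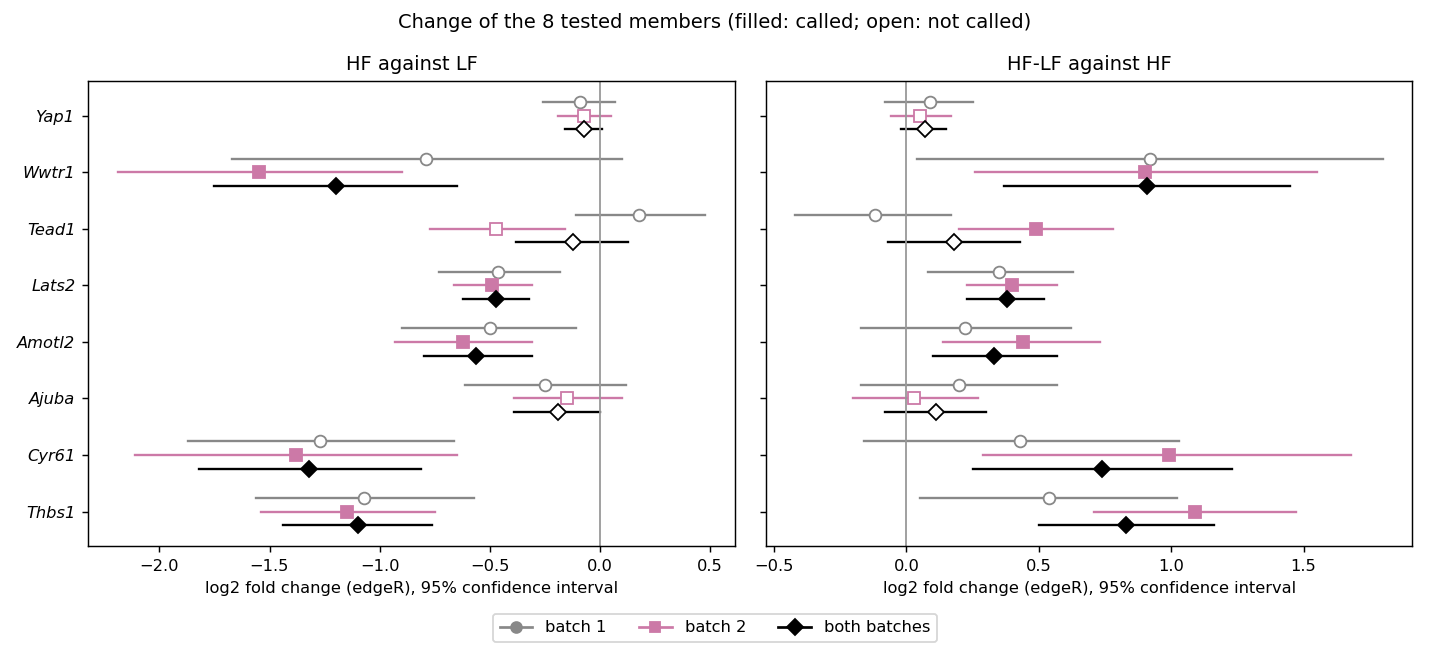
Log2 fold change (edgeR, points) with its 95% confidence interval (lines) of each tested member for HF against LF (left) and HF-LF against HF (right), in batch 1, batch 2 and both batches, with filled points for called genes. For HF against LF with both batches, 5 members are called below 0 and Yap1 sits at -0.07.

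The comparison of HF-LF with HF samples asks where expression stood after the change to the low-fat diet. With both batches, Wwtr1, Thbs1, Cyr61, Lats2 and Amotl2 were higher in HF-LF than in HF samples, by 1.88, 1.78, 1.67, 1.3 and 1.26 times, beside 5.23% of all genes tested that were called higher. The log2 fold changes were 0.91 ± 0.26 for Wwtr1 (SE, edgeR adjusted p = 0.0259), 0.83 ± 0.16 for Thbs1 (adjusted p = 0.0077), 0.74 ± 0.24 for Cyr61 (adjusted p = 0.0381), 0.38 ± 0.07 for Lats2 (adjusted p = 0.00667) and 0.33 ± 0.12 for Amotl2 (adjusted p = 0.0488). These HF samples are also those of the comparison with LF, so the comparisons share them and are not independent. Median log2 fold changes of markers here were 1.58 for 7 smooth muscle, 0.68 for 7 fibroblast and 0.39 for 3 endothelial genes. For 10 epithelial and 4 immune genes they were -0.03 and 0.15. Of these markers only 1 endothelial gene was called. The part of such cells in the rise of the members was not tested. Thbs1 and Lats2 stayed called whichever sample was left out, while Amotl2 lost its call without any of 13 of the 23 samples, Cyr61 without any of 7 and Wwtr1 without any of 2. Amotl2 also missed the threshold with RLE factors (adjusted p = 0.0502) and with no filter on low counts (adjusted p = 0.0665). The count was 2 without batch 1 HF replicate 3 or batch 2 HF replicate 2, and 3 without batch 1 HF-LF replicate 2, batch 2 HF replicate 3 or batch 2 HF-LF replicate 1 or 4.

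In batch 2 on its own, 6 members were called higher in HF-LF than in HF samples, beside 8.89% of genes called higher, namely Thbs1 (log2 fold change 1.09), Cyr61 (0.99), Wwtr1 (0.90), Tead1 (0.49), Amotl2 (0.44) and Lats2 (0.40). Without HF replicate 2 the count was 0, without HF replicate 3 or HF-LF replicate 1 or 4 it was 2, and without LF replicate 2 it was 3. Wwtr1 (edgeR adjusted p = 0.0486) lost its call without any of 10 of the 12 samples, and Cyr61 (0.0475) without any of 8. Amotl2 did so without any of 6, Tead1 of 4, and Thbs1 and Lats2 of 1. Cyr61 also missed the threshold with DESeq2 (adjusted p = 0.0551). Wwtr1 missed it in edgeR with no filter on low counts (0.0567) or a block on the replicate number (0.0512). In batch 1, 0 members were called (0.00693% of genes called higher), and at an unadjusted p under 0.05 Thbs1, Lats2 and Wwtr1 were higher, beside 4.81% of all genes. Batch 1 HF-LF samples were above every HF sample for Lats2 and Wwtr1 (3.95% of genes), and batch 2 HF-LF samples for Amotl2, Lats2, Tead1, Thbs1 and Wwtr1 (14.6% of genes).

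Against LF samples, HF-LF samples showed 0 of 8 members called in either batch or in both together (0%, 0.00696% and 0% of genes called in batch 1, batch 2 and both). At an unadjusted p under 0.05, the lower members were Cyr61 and Thbs1 in batch 1 (2.79% of genes lower), Wwtr1 in batch 2 (2.5%), and Cyr61 and Amotl2 with both batches (2.18%). Cyr61 stood at 0.561 of the LF level in batch 1, with a log2 fold change of -0.83 (95% confidence interval -1.38 to -0.29, edgeR adjusted p = 0.792). In that batch 3 of the 4 HF-LF samples were below all LF samples, both for Cyr61 and for Thbs1. In batch 2, Thbs1 differed by -0.06 with an interval of -0.39 to 0.28, and of the 5 HF-LF samples 4 were below all LF samples for Lats2, 2 for Thbs1, 2 for Amotl2 and 1 for Cyr61. A p that misses the threshold does not show that HF-LF and LF samples were alike, and for Cyr61 with both batches the interval ran from -1.02 to -0.14.

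**Figure D3:**
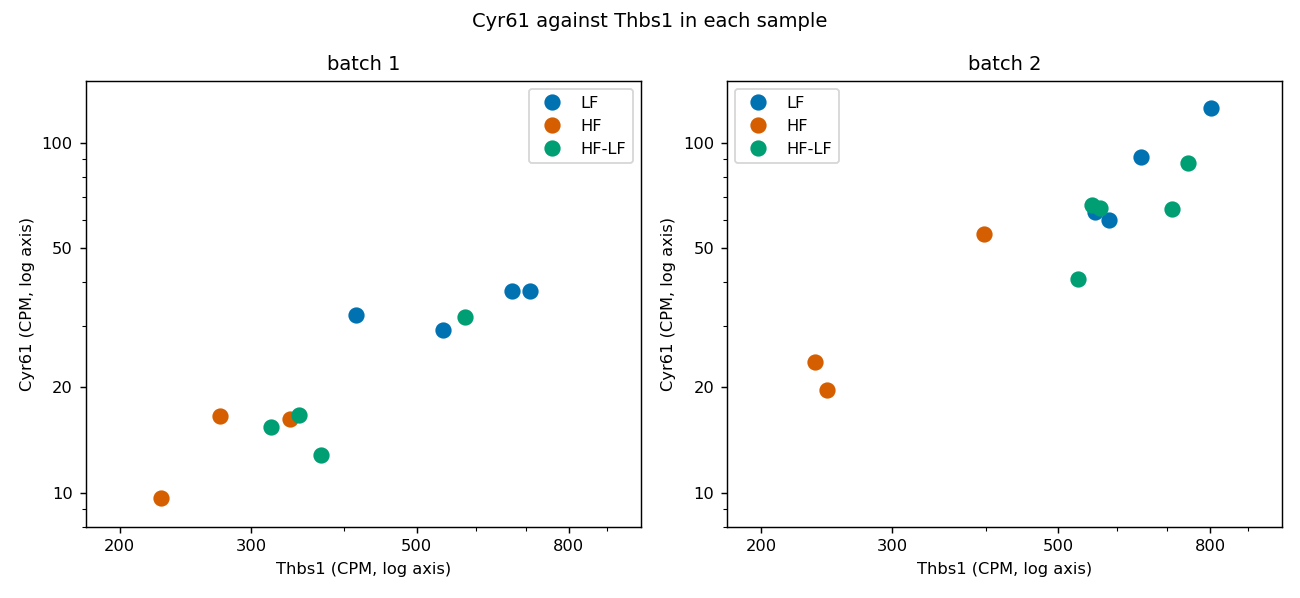
Cyr61 against Thbs1 in CPM (log axes) for each sample, coloured by diet, in batch 1 (left) and batch 2 (right). In batch 1, 3 of the 4 HF-LF samples lie beside the HF samples. In batch 2 the HF-LF samples, at 532 to 747 CPM of Thbs1, lie to the right of the HF samples at 236 to 398. For Cyr61 they overlap there, with an HF-LF sample at 40.7 CPM and an HF sample at 55.

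Cyr61 and Thbs1 varied together from sample to sample. Over log2 CPM centred on the batch mean in the 23 samples, the genes most like Cyr61 out of 14473 were Grasp, a scaffold protein (Pearson r = 0.929), Arc, an activity-induced cytoskeletal protein (0.926), Ppp1r15a, a regulatory subunit of a phosphatase in the stress response (0.921), Thbs1 (0.92) and Arl4a, a small GTPase (0.915). These correlations hold the difference between diets and share library depth and composition, and are given as a description. Of the other members Amotl2 ranked 26th by r (0.877) and Lats2 406th (0.741), while Wwtr1 (0.553), Ajuba (0.519), Yap1 (0.416) and Tead1 (0.331) ranked 2234th, 2591st, 3749th and 4632nd. With the diet and batch means taken out, Cyr61 still went with Thbs1 (r = 0.82) and Amotl2 (0.72), whereas Yap1 had r = 0.15 with Cyr61, 0.23 with Thbs1 and 0.67 with Ajuba over the 23 samples.

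The other Hippo genes, 24 upstream kinases, adaptors and TEAD factors outside the members, had a median log2 fold change of -0.02 in HF against LF samples with both batches. Of 23 tested, 5 were called lower and 1 higher, where 8.81% of all genes were called lower and 9.16% higher. Those lower were Fat4, an atypical cadherin (-0.62), Amotl1, an angiomotin relative of Amotl2 (-0.53), Wwc1, which encodes KIBRA (-0.31), Tead3 (-0.30) and Taok2, a kinase upstream of the cascade (-0.27). Frmd6, a FERM-domain protein, was higher (0.29). Fat4 rested on 17 to 69 counts per sample. Its HF samples overlapped the LF samples in batch 1 (0.383 to 1.52 and 1.12 to 1.57 CPM) but not in batch 2. Amotl1 fell within batch 2 (-0.76 ± 0.17, SE, edgeR adjusted p = 0.028), where all 3 HF samples, at 5.15 to 5.72 CPM, were below the 7.92 to 10.1 CPM of the LF samples. In batch 1 its HF samples, at 5.54 to 6.41 CPM, overlapped the LF samples at 5.60 to 9.06. The 5 genes called lower and the members Lats2 and Amotl2 comprise both inhibitors and partners of YAP.

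The targets outside the members came from a published list of 22 YAP/TAZ-responsive genes, of which 17 are not members. Of the 16 tested with both batches, 3 were called lower and 0 higher (8.81% and 9.16% of all genes), with a median of -0.20. They were Ptpn14, a phosphatase that binds YAP (-0.70), Nuak2, an AMPK-related kinase (-0.44), and Crim1, a membrane protein that binds BMPs (-0.28). Ptpn14 averaged 9.97 ± 1.84 CPM in LF and 6.41 ± 2.23 in HF samples of batch 1, and 10.9 ± 2.36 and 6.32 ± 0.867 in batch 2 (SD, n = 4 LF and 3 HF in each). Nuak2 fell in batch 2 by 0.37 on the log2 scale, where HF samples at 38.4 to 40.9 CPM lay below LF samples at 49.7 to 54.7. In batch 1 its HF samples, at 24.1 to 46.3 CPM, overlapped the LF samples at 43.8 to 61.2. Batch 2 on its own called Ptpn14 and Nuak2 lower and also 2 of the 15 tested genes higher (4.4% of all genes lower and 3.03% higher), which are named here after their values were seen. These were Nt5e, a cell-surface nucleotidase (0.70 ± 0.17, SE, edgeR adjusted p = 0.0347), and F3, tissue factor (0.33 ± 0.08, adjusted p = 0.0382). With both batches neither was called (Nt5e 0.34, adjusted p = 0.0546, and F3 0.18, adjusted p = 0.142).

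Of 10 genes linked to YAP in intestinal repair, 9 were tested with both batches, 0 were called lower and 1 higher, and their median log2 fold change was 0.25. A single call among 9 is close to the share of all genes called higher (9.16%). The gene called was Anxa1, an annexin of epithelial wound repair, at 0.46 ± 0.13 (SE, edgeR adjusted p = 0.0135). Relatives of Cyr61 and Thbs1, the other CCN and thrombospondin genes, had 0 of 5 tested called, beside 8.81% of all genes lower and 9.16% higher. Their median was -0.22 (smallest edgeR adjusted p = 0.0719).

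Immediate early genes, which cells transcribe within minutes of a stimulus and of which several share inducers with Cyr61, were lower in HF samples almost throughout. The study itself reports primary response genes, immediate early genes among them, as lower in aged obese mice. The direction seen here is therefore not an independent result. Of the 20 genes, all were tested, and 18 were called lower and 0 higher with both batches, beside 8.81% and 9.16% of all genes. The median log2 fold change was -0.67. The 6 with the largest changes were Klf2 (-1.38), Nr4a1 (-1.19), Egr3 (-1.17), Fosb (-1.12), Egr2 (-0.77) and Atf3 (-0.75). Cyr61 (-1.32) and Thbs1 (-1.10) changed by amounts within this range. Fosb averaged 838 ± 117 CPM in LF and 335 ± 161 in HF samples of batch 1, and 519 ± 59.6 and 278 ± 48.9 in batch 2 (SD, n = 4 LF and 3 HF in each). In HF-LF against HF samples, 13 of the 20 were called higher with both batches, beside 5.23% of all genes. It was 0 in batch 1 (0.00693% of genes) and 15 in batch 2 (8.89%). Against LF samples, HF-LF samples had medians of -0.45 in batch 1, 0.01 in batch 2 and -0.20 with both, with 0 called in each. At an unadjusted p under 0.05 (edgeR), 13 were lower in batch 1 (2.79% of genes), 2 in batch 2 (2.5%) and 8 with both (2.18%).

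**Figure D4:**
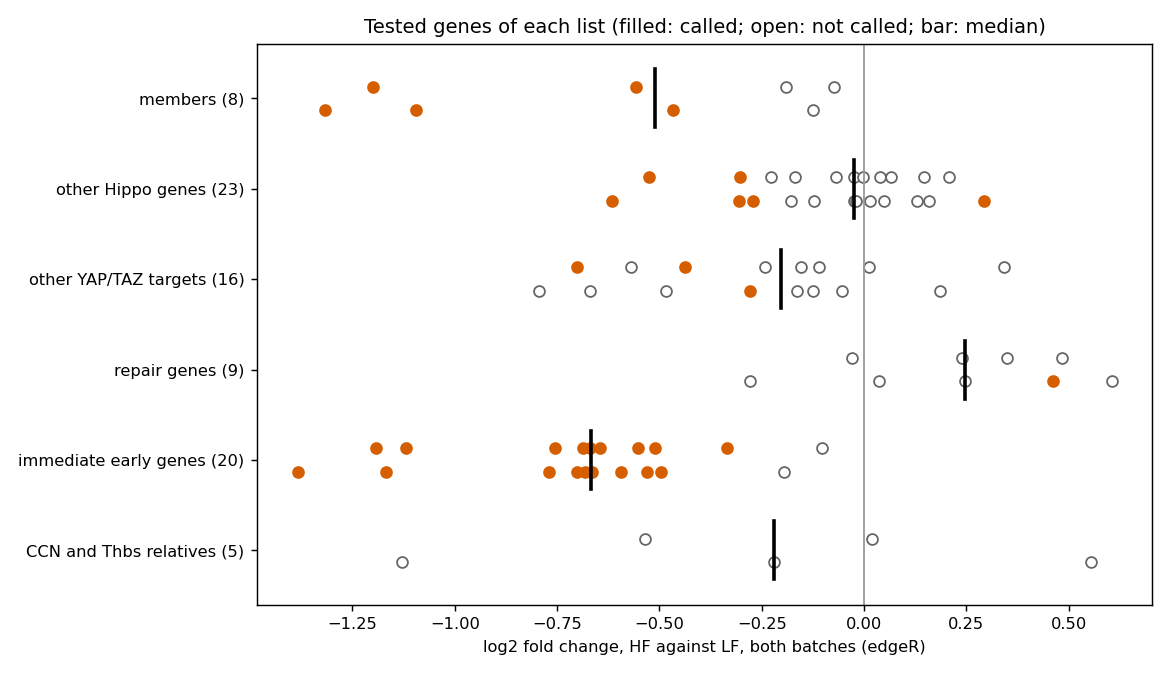
Log2 fold change of HF against LF with both batches (edgeR) for each tested gene of the members and 5 related lists, with filled points for called genes, a bar at the median of each list and the number of tested genes in parentheses. The medians run from -0.67 for the immediate early genes and -0.51 for the members to 0.25 for the repair genes.

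Markers of other cell types differed between diets in part, and their share in the member results was not tested. In HF against LF samples with both batches, 0 of 10 epithelial markers, 0 of 7 smooth muscle markers and 0 of 4 immune markers were called, with medians of 0.06, -1.27 and -0.24. Of 7 fibroblast markers, Pdgfra was called lower (-1.20, edgeR adjusted p = 0.0454), and of 3 endothelial markers, Vwf (-0.49, adjusted p = 0.00625). Among all genes, 8.81% were called lower and 9.16% higher in this comparison. The smooth muscle genes went in unlike directions in the batches, with a median of 0.19 in batch 1 and -2.31 in batch 2, where their summed level was 6.45 to 32.7 CPM in LF and 0.988 to 5.00 in HF samples. In batch 1 those sums were 1.61 to 11.7 CPM in LF and 0.654 to 11 in HF samples. The fibroblast median was -0.29 in batch 1 and -1.01 in batch 2, and the endothelial median -0.54 over 4 genes and -0.31 over 2. Acta2 averaged 0.631 CPM in LF and 0.818 in HF samples of batch 1, Myh11 3.11 and 3.02, Col1a1 2.78 and 2.20, Pecam1 6.45 and 4.50, and Ptprc 16.2 and 14.3. In batch 2 Acta2 averaged 1.87 CPM in LF and 0.346 in HF samples, Myh11 8.54 and 1.5, and Col1a1 4.43 and 1.58. Pecam1 stood at 5.45 and 4.79 there, and Ptprc at 9.18 and 10.7. Batch 2 alone called 1 of 8 smooth muscle markers lower, beside 4.4% of all genes. The log2 fold change was negative there for all 8 smooth muscle and all 7 fibroblast markers, beside a median of -0.01 over all genes. At an unadjusted p under 0.05 (edgeR), 7 of the 8 and 3 of the 7 were lower.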

How the data were processed

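Total RNA of colonic epithelium was sequenced from stranded libraries depleted of ribosomal RNA. The authors deposited counts of reads per gene locus, without normalization, after trimming with cutadapt 1.2.1, mapping to mm10 with STAR 2.5 and counting with featureCounts 1.5.0-p1, per the submitters' processing notes. The annotation, the strand setting and the handling of reads on several genes are not given in the sources used here. The fits used edgeR 4.0.16 (R 4.3.3; TMM factors, filterByExpr, quasi-likelihood F test, Benjamini-Hochberg adjustment over all genes tested), with the 3 diets in one fit, for each batch and for both with batch as a covariate. DESeq2 1.42.0 was an alternative. Scripts were tested on simulated data. Exon lengths came from GENCODE and promoters from RefSeq. Log2 CPM for correlations and for the SD within groups was taken after adding 0.5 CPM to each value. This constant is of the size of the Wwtr1 levels. Named genes were all 10 members, up to 6 called genes of each list by largest change, the 5 genes most like Cyr61 and 6 cell type checks. Members and lists were chosen with earlier results of these data known.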

Additional observations from a re-analysis of the deposited data

How the results depend on the processing

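With both batches, the 5 members called lower in HF than in LF samples stayed 5 under each alternative run. For HF-LF against HF with both batches, 4 of the 5 were called with RLE factors or no filter, and in batch 2, 5 of the 6 were called with DESeq2, no filter or the replicate block. Counts in single batches depended on the processing, and the cause was not tested. For HF against LF in batch 1, where edgeR called 0 members and 0 genes, DESeq2 called 3 members and 478 genes, RLE factors 1 gene, no filter on low counts 2 genes, and a block on the replicate number 2 members and 92 genes. For HF against LF in batch 2 (1069 genes), DESeq2 called 1856 genes and the replicate block 2080, and both called Tead1 lower (adjusted p = 0.0154 and 0.0221). For HF-LF against HF in batch 1 (1 gene), DESeq2 called 14, no filter 2 and the replicate block 0. For HF-LF against LF, DESeq2 called 4 genes in batch 1, 15 in batch 2 and 6 with both batches, and the replicate block 0 in batch 2 and 1 with both, against 0, 1 and 0. Whether the numbers pair the samples could not be told from the values. Deviations from the group means were correlated between same-numbered samples of different diets. These correlations ran from -0.469 to 0.469 in batch 1 and from -0.134 to 0.472 in batch 2. Their medians were 0.126 and 0.076, beside -0.028 and -0.012 for samples of other numbers. In batches 1 and 2, 4 of 11 and 5 of 11 samples correlated best with their own number. The share expected without pairing was not worked out. Leaving out each sample in turn gave, for HF against LF, 0 to 3 members and 0 to 1352 genes in batch 1, 0 to 6 members and 15 to 2560 genes in batch 2, and 5 members and 1552 to 3708 genes with both. For HF-LF against HF it gave 0 members and 0 to 3 genes in batch 1, 0 to 6 members and 11 to 2778 genes in batch 2, and 2 to 5 members and 500 to 2663 genes with both. For HF-LF against LF it gave 0 to 6, 0 to 2 and 0 to 3 genes. Single uncalled changes near 0 turned their sign when a sample was left out: for HF-LF against HF in batch 1 Tead1 (-0.19 to 0.01), for HF-LF against LF in batch 1 Ajuba (-0.11 to 0.02), Lats2 (-0.17 to 0.01), Tead1 (-0.02 to 0.15) and Wwtr1 (-0.02 to 0.32), for HF-LF against LF in batch 2 Tead1 (-0.06 to 0.08) and Thbs1 (-0.13 to 0.06), and for the difference between batches Ajuba (-0.07 to 0.18), Amotl2 (-0.25 to 0.08), Cyr61 (-0.72 to 0.15), Lats2 (-0.13 to 0.04), Thbs1 (-0.38 to 0.07) and Yap1 (-0.06 to 0.07).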
